A study of Sus scrofa with 9 samples.

Results

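In spleen of the Ningxiang pig, 224 of 522 predicted miRNA candidates had a deposited normalised value of at least 5 in at least 3 of the 9 libraries. A candidate here is a mature sequence that the authors list under a name beginning with PC, for predicted candidate, in place of the name of a pig miRNA. The name gives the arm of the predicted hairpin, 5p or 3p, and the candidates were selected on these normalised values, by level and not by age. The whole table held 975 entries after 5 repeated ones were dropped, and 406 named pig miRNAs passed the same filter, so that 630 entries were tested.

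The Ningxiang pig is an indigenous Chinese breed. Spleens were taken at postnatal day 30, day 90 and day 210, with 3 libraries per age, and the labels name no treatment. The labels name no animal for a library, so whether the 3 libraries of an age are separate pigs is unknown, and the p-values reflect spread between libraries that may be technical. The age comparisons address how spleen small RNAs differ during growth.

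MiRNAs are short RNAs cut from hairpin precursors by Drosha and Dicer, and bound by Argonaute proteins, which they guide to messenger RNAs with matching sites. Pairing to the target runs mainly through bases 2 to 8 of the miRNA, the seed, and miRNAs with one seed form a family. Prediction programs propose new miRNAs from reads that map to a sequence able to fold into a hairpin, a criterion that fragments of other structured RNAs and length variants of known miRNAs can also meet.

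The sequences that carry the results are given 5′ to 3′ as in the deposited table, with T for U, and the capitals mark the seed. The first set shows the 3 of the 5 most abundant candidates that resemble named pig miRNAs, each above the named sequence it resembles.
PC-3p-185_76789: aTGCGGAAcctgcggatacgga
miR-7134-3p: aTGCGGAAcctgcggatacgg
PC-5p-897_7083: cATGTCCGcgggttccctatcc
miR-7134-5p: aTGTCCGCgggttccctatcc
PC-5p-280_37759: tTCAAGTAacccaggataggctt
miR-26a: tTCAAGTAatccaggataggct

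The second set shows the 5 candidates of at least 70% GC that were called higher at day 210 than at both earlier ages.
PC-5p-2838_1485: tCCTCCCGcccccccgcctccca
PC-5p-24063_140: cCCCCCCGcctcccacctccg
PC-3p-5107_766: cACCCCGCctcctctcgccgcc
PC-5p-1854_2553: cACGCCCGgggcaccccc
PC-3p-42837_55: cGAATCCCaccgctgccacc

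The third set shows the only candidates of 26 bases among the 224, both called higher at day 210 than at day 90.
PC-5p-10014_379: tCCCTGGTctagtggttaggattcgg
PC-5p-29308_106: gCATTGTGtttcagtggtagaattct

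The fourth set shows the 6 candidates called lower at day 210 than at both earlier ages, and PC-5p-5029_779, called lower at day 210 than at day 30, with its shorter copy.
PC-5p-34450_83: gAGCAAAGctctggcccgg
PC-5p-13437_278: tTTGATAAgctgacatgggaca
PC-5p-16308_225: cCTGGGCAccatgaactg
PC-3p-36331_75: gCCGCGCTcggagctcggagct
PC-5p-42886_55: tTCATTCGgctgtccagatgta
PC-3p-54853_30: cGGAGTGAggcggagggac
PC-5p-5029_779: tTTACGTCctttcacctagttt
PC-5p-14073_264: tTTACGTCctttcacctagtt

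The libraries differed in depth. With the commonest low value of a library taken as 5 reads, they held between 4.54 M (day 210 replicate 3) and 9.34 M reads. The value that stood for 5 reads ran from 3.62 to 8.001, highest in day 210 replicate 3, and 1.90% of the candidate values above 0 stood for fewer than 5 reads. Day 30 libraries had 190 ± 14.2 of the 224 candidates above 0, day 90 libraries 180 ± 7.51 and day 210 libraries 160 ± 28.5 (SD, n = 3). The most candidates listed at 0, 93 of the 224, stood in day 210 replicate 3. On the first principal component of the tested entries, day 210 replicates 2 and 3 scored 28.0 and 33.3, day 210 replicate 1 scored 8.99, and the 6 earlier libraries scored below 0. The tissue label was checked on named miRNAs: miR-150 of lymphocytes lay between 43758 and 95280 and miR-223 of myeloid cells between 4776 and 9397. On the same list, of lymphoid and blood cells, miR-155-5p lay between 2497 and 6001 and miR-142-3p between 369 and 840. That list also held miR-142-5p, which matched no entry, so a missing entry need not mean absence. No entry matched the liver miRNA miR-122 or the pancreatic islet miRNA miR-375. Of the other pancreas miRNAs looked for, miR-216 matched no entry and miR-217 lay between 0 and 12.4. The striated muscle miRNAs miR-1, between 1312 and 3305, miR-133a-3p, between 4055 and 11119, and miR-206, between 38.6 and 82.1, were present in every library.

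The candidates were far less abundant than the named miRNAs, richer in G and C, and more often short. The median of the mean value over the 9 libraries was 13.9 for the 224 candidates and 358 for the 406 named miRNAs, and 7 candidates had a mean of at least 1000. Only 90 candidates (40.2%) were above 0 in all 9 libraries, against 342 named miRNAs (84.2%). The median GC content was 55.6% in the candidates and 47.8% in the named miRNAs. A GC content of at least 70% was found in 41 candidates (18.3%) and in 15 named miRNAs (3.69%). Lengths of 18 to 20 bases, below the usual range of Dicer products, were found in 58 candidates (25.9%) and in 29 named miRNAs (7.14%). The 22-base length held 89 candidates (39.7%) and 185 named miRNAs (45.6%). The first base was T, the base that Argonaute proteins favour at the 5′ end as U, in 87 candidates (38.8%) and in 172 named miRNAs (42.4%). By arm, 91 candidates were listed as 5p and 133 as 3p. These shares describe the deposited lists and were not tested.

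**Figure D1:**
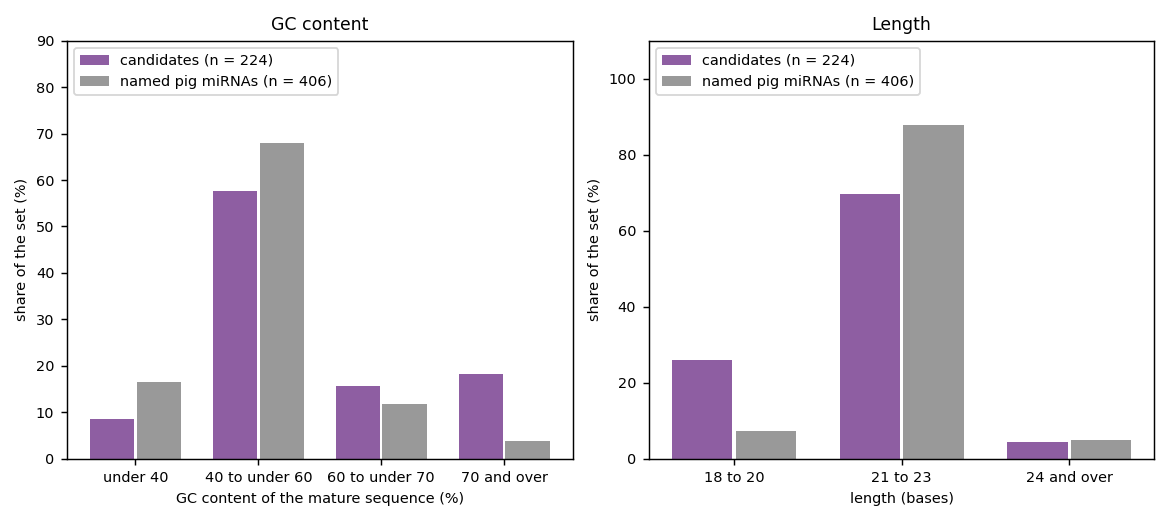
Share (%) of the 224 candidates (purple) and of the 406 named pig miRNAs (grey) in classes of GC content (left) and of length in bases (right). The candidates hold 18.3% at a GC content of at least 70% and 25.9% at 18 to 20 bases, against 3.69% and 7.14% of the named miRNAs.

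A few candidates carried most of the signal. The 10 most abundant held 77.9% of the summed values of the 224, and PC-3p-185_76789 alone held 33.6%. Its values were 10964, 13354 and 11389.8 in the day 30 libraries, 13686, 15349.7 and 12489 in the day 90 libraries and 15115, 15781 and 10116 in the day 210 libraries. The highest and the lowest value both stood in the day 210 libraries, and the ages overlapped. PC-5p-280_37759, the second in level, had 6074, 5240.1 and 5616 in the day 30 libraries, 5342, 5452 and 6166 in the day 90 libraries and 5865, 6169.9 and 6727 in the day 210 libraries. It was the steadiest of the 10, with a lowest of 5240 and a highest of 6727. PC-3p-1229_4403 had 2920.2, 2038 and 2780.1 in the day 30 libraries, 2831, 3075 and 3209 in the day 90 libraries and 2225, 1205 and 3043 in the day 210 libraries, lowest in day 210 replicate 2, and no named entry shares its seed. PC-3p-552_14516, at 19 bases the second shortest of the 10, averaged 1804 ± 362 at day 30, 1698 ± 156 at day 90 and 2054 ± 317 at day 210 (SD, n = 3). PC-5p-760_9369 averaged 1430.2 ± 108, 1352 ± 105 and 1441 ± 393 at the same 3 ages, with all ages overlapping. PC-5p-1779_2691 averaged 809 ± 82.4, 843 ± 123 and 932 ± 459, and its lowest and highest values were again both in day 210 libraries. PC-5p-1592_3139 had 589.8, 764 and 712 in the day 30 libraries, 1045, 1221 and 933 in the day 90 libraries and 1401, 1434 and 710.5 in the day 210 libraries. All day 90 values lay above all day 30 values, while day 210 replicate 3 lay within the day 30 range, and no comparison passed the test (adjusted p = 0.313 for day 90 against day 30, limma). Of the 10, only PC-5p-1854_2553, described with the GC-rich candidates, was called between ages.

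**Figure D2:**
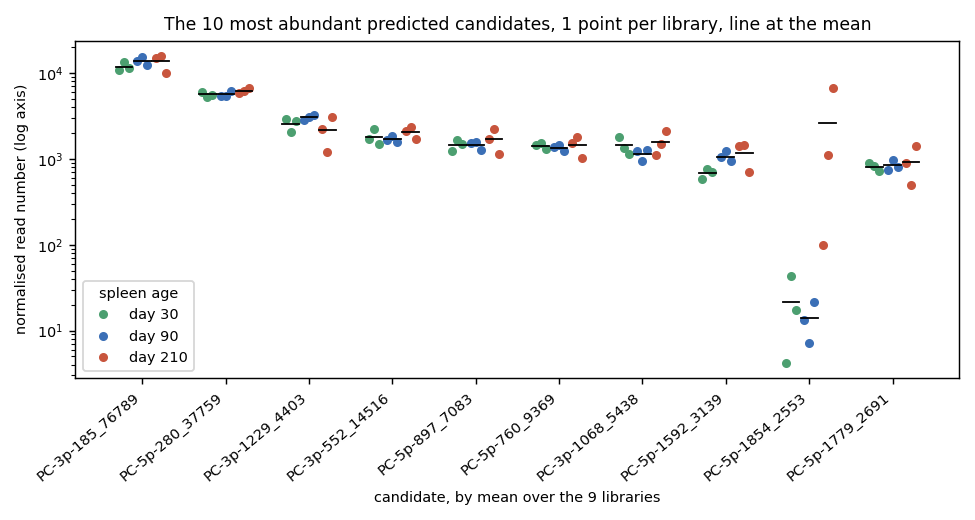
Normalised value (log axis) of the 10 most abundant candidates in each of the 9 libraries, 1 point per library, with a line at the mean of each age. PC-5p-1854_2553 stands between 4.24 and 42.9 in the 6 earlier libraries and at 98.1, 1115 and 6733 in the day 210 libraries, whereas none of the other 9 was called between ages.

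The seventh in level, PC-3p-1068_5438, is shown because its sequence holds a motif of other small RNAs.
PC-3p-1068_5438: gTTCGACTcccggtatgggaacca
Its values were 1820.4, 1343 and 1145 in the day 30 libraries, 1221, 952 and 1258 in the day 90 libraries and 1106, 1500.2 and 2106 in the day 210 libraries, and the ages overlapped. It begins with GTTCGA, a stretch found in the T arm of most transfer RNAs, and ends in CCA, the end that is added to mature transfer RNAs. GTTCGA occurred in 1 of the 224 candidates (0.446%) and in 0 of the 406 named miRNAs, read on the given strand, and in neither set as its reverse complement. An end in CCA occurred in 5 candidates (2.23%) and in 5 named miRNAs (1.23%). Both motifs were chosen after the sequence was seen, and the labels say that transfer RNA reads were removed before the table was made.

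Candidates that resemble a named pig miRNA held 53.3% of the candidates' summed values. There were 10 of them, each equal to a named entry apart from at most 1 substitution and at most 2 bases at the ends. PC-3p-185_76789 is miR-7134-3p with 1 more base at the 3′ end, and averaged 13138 over the 9 libraries against 36545 for the named entry. As a share of miR-7134-3p in the same library it stood at 42.2, 40.5 and 42.2% at day 30, 36.6, 35.4 and 35.4% at day 90 and 34.0, 31.4 and 31.2% at day 210. The 3 ages did not overlap, with the highest shares at day 30 and the lowest at day 210. The mean share was 32.2 ± 1.56% at day 210 against 41.6 ± 0.967% at day 30 (SD, n = 3 each; exact two-sided permutation test, p = 0.1, the smallest that 3 libraries against 3 can give, adjusted p = 0.18 over 9 such tests). The share does not depend on how the libraries were scaled. Neither sequence was itself called between those ages by limma, with log2 fold changes on the value + 1 scale of 0.18 ± 0.18 for the candidate (adjusted p = 0.565) and 0.55 ± 0.18 for miR-7134-3p (adjusted p = 0.0741).

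The other arm of the same hairpin gave the fifth candidate in level. PC-5p-897_7083 is miR-7134-5p with 1 base added before the first, so that its seed is shifted by 1 base. Its values were 1233, 1644 and 1494 in the day 30 libraries, 1517, 1566 and 1286 in the day 90 libraries and 1713, 2219 and 1147 in the day 210 libraries. As a share of miR-7134-5p it stood at 16.6, 15.6 and 17.8% at day 30, 16.6, 15.2 and 17.6% at day 90 and 15.7, 15.5 and 15.1% at day 210. These shares overlapped between ages, unlike those of the 3p arm (exact two-sided permutation test of day 210 against day 30, p = 0.2, adjusted p = 0.3). The difference between the arms was not tested.

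PC-5p-280_37759 differs from miR-26a by T10C, counted from 1 at the 5′ end of miR-26a, and by 1 more base at the 3′ end. The candidate averaged 5850 over the 9 libraries, against 975237 for miR-26a, the most abundant entry of the table. The candidate's share of miR-26a was 0.725, 0.610 and 0.600% at day 30, 0.554, 0.548 and 0.554% at day 90 and 0.610, 0.597 and 0.623% at day 210. Day 30 replicate 1 was highest, and the day 90 libraries lay below all others, with a mean of 0.552 ± 0.00330% at day 90 against 0.645 ± 0.0695% at day 30 (SD, n = 3 each; exact two-sided permutation test, p = 0.1, adjusted p = 0.18). PC-3p-5507_708 differs from miR-500-3p by A1G and 2 more bases at the 3′ end, and its share of that entry ran from 1.37 to 2.44%, with both ends of the range in day 210 libraries. The others near a named entry, named after their values were seen, were PC-3p-21102_166 with miR-500-3p, PC-5p-29850_103 with miR-1468, PC-3p-11113_341 with a listed variant of miR-141, PC-3p-27919_114 with miR-7137-3p, PC-3p-29205_107 with miR-7139-3p and PC-3p-39151_66 with miR-7142-3p. Of the 10, 2 had a higher mean than the named entry they resemble, PC-3p-11113_341 with 51.8 against 11.6 and PC-3p-29205_107 with 15.3 against 13.6. No candidate of the 10 was called between any ages.

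One candidate, chosen after its values were seen, lies opposite a named miRNA. PC-3p-33849_85 is the reverse complement of the first 21 bases of miR-214-5p.
PC-3p-33849_85: cACAGCAAgtgtagacaggca
miR-214-5p: tGCCTGTCtacacttgctgtgc
Its values were 20.4, 16.2 and 21.7 in the day 30 libraries, 5.75, 8.13 and 21.3 in the day 90 libraries and 12.8, 7.75 and 0 in the day 210 libraries, and its mean of 12.7 compares with 455 for miR-214-5p. The day 210 libraries lay below the day 30 libraries without overlap, and the difference did not pass the test (adjusted p = 0.18, limma).

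Some candidates were copies of one another. Allowing 1 substitution and 2 bases of the candidate outside the overlap, 15 of the 224 lay near another of the 522 candidates. For some of the 15 the only near candidates were below the filter. Others lay near each other, so the 224 are not all independent sequences. The largest such group held 5 candidates that share the 17 bases GTCCTTCGGAACCCCAA, of which the most abundant were PC-3p-2363_1863 and PC-3p-3376_1210.
PC-3p-2363_1863: tTAGTCCTtcggaaccccaaat
PC-3p-3376_1210: tTGGTCCTtcggaaccccaaat
PC-3p-2363_1863 carries G3A relative to PC-3p-3376_1210, counted from the 5′ end, and so has another seed. PC-3p-2363_1863 averaged 111 ± 27.3 at day 30, 123 ± 17.7 at day 90 and 96.4 ± 48.2 at day 210 (SD, n = 3). PC-3p-3376_1210, named after its values were seen, averaged 69.0 ± 20.3, 78.3 ± 21.8 and 77.8 ± 41.7 at the same ages. PC-3p-2363_1863 was the higher of the pair in all 9 libraries, between 121 and 221% of the other, and neither was called between ages.

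Of the 224 candidates, 22 shared a seed with a named pig miRNA, over 20 different seeds. The 5 of highest mean were PC-3p-185_76789, PC-5p-280_37759, PC-3p-2738_1550, PC-3p-5507_708 and PC-3p-5187_753. The 2 that were not near-copies of a named entry are shown with a named sequence of the same seed. Likeness to miRNAs not listed here, of pig or of other species, was not examined, so either may equal a known miRNA.
PC-3p-2738_1550: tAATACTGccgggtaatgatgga
miR-200b: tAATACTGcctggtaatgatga
PC-3p-5187_753: aATCACTAattccactgccatc
mir-34c-1-p3: aATCACTAaccacacggccagg
PC-3p-2738_1550 has the seed of miR-200b and miR-429, members of a family that in mouse and human cells represses the ZEB transcription factors. Its values were 177, 198 and 209 in the day 30 libraries, 232, 329 and 218 in the day 90 libraries and 218, 221 and 136 in the day 210 libraries. All day 90 values were above all day 30 values, and day 210 overlapped both, and no comparison was called (adjusted p = 0.53 for day 90 against day 30). PC-3p-5187_753 shares its seed with mir-34c-1-p3, the listed sequence from the 3′ side of a mir-34c hairpin, and the sequences part after the seed.

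Between day 210 and the earlier ages, 20 of the 224 candidates were called, 11 higher and 9 lower at day 210. A call is an adjusted p under 0.05 by limma, with the Benjamini-Hochberg adjustment over all 630 entries. Against day 30, 15 candidates were called, 7 higher and 8 lower, where 9.21% of all entries tested were called, 4.6% in each direction. Against day 90, 17 were called, 10 higher and 7 lower, where 8.1% of all entries were called, 4.13% higher and 3.97% lower. Neither count is above the share of all entries. The 2 comparisons share the day 210 libraries, and 12 candidates were called in both, 6 higher and 6 lower. The median log2 fold change of the candidates was -0.18 against day 30 and -0.11 against day 90, and that of all entries -0.15 and -0.14. In tissue RNA, fewer cells of a type and less RNA per cell cannot be told apart.

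The counts rest on few libraries. Against day 30, leaving out day 30 replicate 1 gave 2 calls, day 30 replicate 3 gave 4, day 210 replicate 2 gave 6, and day 210 replicate 1 gave 24. Against day 90, the fits that left out day 90 replicates 1, 2 and 3 in turn gave 2, 3 and 8 calls, and the fit that left out day 210 replicate 2 gave 6. With every library scaled to the same sum, the median of all entries against day 30 shifted by -0.23 on the log2 scale and the split became 6 higher and 14 lower, whereas a correction of each library for GC content shifted it by 0.17 and gave 11 higher and 7 lower. With every value raised to the value of 5 reads in the shallowest library, 10 candidates were called against day 30 and 9 against day 90, and 11 of the 32 calls were kept. The filter let some candidates in through 1 age. Of the risers in both comparisons, 5 miss the filter without the day 210 libraries, PC-5p-2838_1485, PC-3p-5107_766, PC-5p-24063_140, PC-3p-42837_55 and PC-5p-29308_106. Of the candidates lower than at day 90, 2 miss it without the day 90 libraries, PC-3p-54853_30 and PC-3p-61157_22. These 7 were tested only through the libraries of the age where they are high, so the filter itself favoured a difference, and their p-values and lack of overlap are given as a description.

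The candidates with the largest rises at day 210 were GC-rich and stood far higher in 1 library than in the rest. PC-5p-2838_1485, with 82.6% GC, had 0, 0 and 0 in the day 30 libraries, 4.79, 0 and 0 in the day 90 libraries and 17.1, 275 and 2680.2 in the day 210 libraries. It was listed at 0 in all day 30 libraries, and all day 210 values lay above all others, with day 210 replicate 3 highest. It was called against day 30 (adjusted p = 0.0152) and against day 90, with a log2 fold change of 7.05 ± 1.53 (SE, adjusted p = 0.024). PC-3p-5107_766, with 81.8% GC, had 0, 18.1 and 4.34 in the day 30 libraries, 0, 0 and 12.2 in the day 90 libraries and 55.5, 379.6 and 2922 in the day 210 libraries. The ages did not overlap between day 210 and the earlier ones, and the log2 fold changes were 6.41 ± 1.59 against day 30 (adjusted p = 0.0349) and 7.40 ± 1.59 against day 90 (adjusted p = 0.024). PC-5p-1854_2553, 18 bases with 88.9% GC, had 4.24, 42.9 and 17.4 in the day 30 libraries, 13.4, 7.12 and 21.3 in the day 90 libraries and 98.1, 1115 and 6733 in the day 210 libraries. It was the ninth most abundant candidate, again through day 210 replicates 2 and 3, with log2 fold changes of 5.81 ± 1.32 against day 30 (adjusted p = 0.0257) and 6.04 ± 1.32 against day 90 (adjusted p = 0.0245). PC-5p-24063_140 was listed at 0 in all 6 earlier libraries and had 7.47, 27.1 and 179 at day 210 (adjusted p = 0.0201 against day 30 and 0.0205 against day 90). It shares the 15 bases CCCCCCCGCCTCCCA with PC-5p-2838_1485, so the pair does not count as independent sequences. In all of these 4, the day 210 libraries stood in one order, replicate 1 lowest and replicate 3 highest.

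PC-3p-42837_55, with 70% GC, behaved otherwise among the day 210 libraries. Its values were 0, 4.77 and 4.34 in the day 30 libraries, 0, 0 and 3.80 in the day 90 libraries and 32.0, 123 and 80.01 in the day 210 libraries. Day 210 replicate 2 was highest, all day 210 values lay above the rest, and the log2 fold changes were 4.47 ± 0.95 against day 30 (adjusted p = 0.0211) and 5.36 ± 0.95 against day 90 (adjusted p = 0.0136). With all values raised to a common floor of 8.001, the value of 5 reads in the shallowest library, its adjusted p was 0.0115 against day 30 and 0.0197 against day 90. As it entered the test through day 210 alone, nothing is read from these p-values. With that floor the other 4 GC-rich risers were not called, with adjusted p between 0.0621 and 0.228 against day 30 and between 0.0566 and 0.254 against day 90.

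Of the other 6 risers, the 26-base candidates both hold AGTGGT. PC-5p-29308_106, with 38.5% GC the least GC-rich of the risers, had 4.24, 0 and 3.62 in the day 30 libraries, 0, 0 and 0 in the day 90 libraries and 25.6, 38.7 and 197 in the day 210 libraries. It too was tested only through day 210. It was listed at 0 in every day 90 library, and all day 210 values lay above all others (log2 fold change 4.36 ± 0.93 against day 30, adjusted p = 0.0213, and adjusted p = 0.00796 against day 90), and missed the threshold with the common floor (adjusted p = 0.0569 and 0.0566). PC-5p-10014_379 had 54.3, 33.4 and 55.7 in the day 30 libraries, 32.6, 16.3 and 35.0 in the day 90 libraries and 91.7, 179 and 755 in the day 210 libraries. Day 210 lay above both earlier ages, and it was called against day 90 with a log2 fold change of 3.08 ± 0.68 (adjusted p = 0.0245), while it missed the threshold against day 30 (adjusted p = 0.0596). AGTGGT occurred in no other of the 224 candidates and in 2 of the 406 named miRNAs, on the given strand. As its reverse complement it occurred in 2 of these candidates and 1 named miRNA. It was chosen after the sequences were seen.

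The remaining 4 risers had a GC content under 70%, and each was called in 1 comparison. PC-5p-3688_1086 had 328, 531 and 395 in the day 30 libraries, 308, 279.5 and 401 in the day 90 libraries and 561, 1185 and 1816 in the day 210 libraries. It rose against day 90 by 1.71 ± 0.39 on the log2 scale (adjusted p = 0.0256), with day 210 replicate 3 highest. PC-3p-2549_1686 had 249.5, 223 and 265 in the day 30 libraries, 114, 187 and 131 in the day 90 libraries and 415, 229 and 365 in the day 210 libraries, above day 90 in every day 210 library and overlapping day 30 (log2 fold change 1.20 ± 0.28 against day 90, adjusted p = 0.0295). PC-3p-33207_88 had 8.49, 14.3 and 10.9 in the day 30 libraries, 0, 0 and 3.80 in the day 90 libraries and 40.5, 25.8 and 12.8 in the day 210 libraries, with day 90 the lowest age (log2 fold change 3.88 ± 0.76 against day 90, adjusted p = 0.0185). PC-3p-5187_753, the candidate with the seed of mir-34c-1-p3, was the riser called against day 30 alone. Its values were 65.3, 85.8 and 96.3 in the day 30 libraries, 152, 119 and 110.2 in the day 90 libraries and 158, 139 and 275 in the day 210 libraries. All day 210 values lay above all day 30 values, and the log2 fold change was 1.15 ± 0.31 (adjusted p = 0.0483). This call was kept in 5 of the 24 alternatives and in none of the 9 fits that left out 1 library, where the adjusted p reached 0.154.

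Among the candidates lower at day 210, PC-5p-34450_83 and PC-5p-13437_278 had the smallest adjusted p. PC-5p-34450_83, 19 bases long, had 30.6, 62.0 and 42.7 in the day 30 libraries, 75.7, 66.1 and 75.3 in the day 90 libraries and 5.33, 0 and 0 in the day 210 libraries. It was above 0 in 1 day 210 library, at 5 reads, and no day 210 library reached the earlier ones. The log2 fold changes were -4.58 ± 0.70 against day 30 (adjusted p = 0.00577) and -5.31 ± 0.70 against day 90 (adjusted p = 0.00374). PC-5p-13437_278 had 126, 102 and 88.3 in the day 30 libraries, 86.3, 67.1 and 76.8 in the day 90 libraries and 23.5, 29.7 and 20.8 in the day 210 libraries. The day 210 values lay close together and below all others, with log2 fold changes of -2.05 ± 0.29 against day 30 (adjusted p = 0.00388) and -1.61 ± 0.29 against day 90 (adjusted p = 0.0149). Of the 32 calls in the 2 day 210 comparisons, 2 were kept under every alternative that tested them, PC-5p-13437_278 against day 30 and PC-5p-34450_83 against day 90.

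Of the other falls, 4 were also called in both comparisons. PC-5p-16308_225, 18 bases long, had 37.3, 53.9 and 30.4 in the day 30 libraries, 15.8, 34.1 and 29.6 in the day 90 libraries and 3.20, 5.81 and 0 in the day 210 libraries, with no overlap of day 210 with the earlier ages (log2 fold change -3.72 ± 0.71 against day 30, adjusted p = 0.0152, and -3.10 ± 0.71 against day 90, adjusted p = 0.0274). PC-3p-36331_75, with 77.3% GC, had 18.7, 44.8 and 37.6 in the day 30 libraries, 50.8, 52.9 and 41.8 in the day 90 libraries and 12.8, 0 and 0 in the day 210 libraries. It and PC-3p-54853_30 are the GC-rich candidates that fell, in the same libraries where other GC-rich ones were highest (log2 fold change of PC-3p-36331_75 -3.77 ± 0.93 against day 30, adjusted p = 0.0349, and -4.36 ± 0.93 against day 90, adjusted p = 0.024). PC-3p-54853_30, whose seed is that of miR-2411, had 5.09, 20.03 and 4.34 at day 30 and 9.59, 7.12 and 5.32 at day 90, and was listed at 0 in every day 210 library (adjusted p = 0.0303 and 0.0363). PC-5p-42886_55 had 15.3, 5.72 and 10.9 at day 30 and 12.5, 12.2 and 16.0 at day 90, and was also listed at 0 throughout day 210 (adjusted p = 0.0117 and 0.00796). Several of the earlier values of these 2 lie under 8.001, the value of 5 reads in day 210 replicate 3. With the common floor neither was called, with an adjusted p of 0.251 against day 30 and 0.101 against day 90 for PC-5p-42886_55, and 0.465 and 0.936 for PC-3p-54853_30.

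The last 3 falls were each called in 1 comparison. PC-5p-5029_779 had 166, 135 and 172 in the day 30 libraries, 43.6, 45.7 and 122 in the day 90 libraries and 32.5, 60.03 and 16.8 in the day 210 libraries. Every day 210 value was below every day 30 value, with a log2 fold change of -2.25 ± 0.51 (adjusted p = 0.0261). Its copy PC-5p-14073_264, shorter by 1 base and named after its values were seen, had a log2 fold change of -1.96 ± 0.55 that missed the threshold (adjusted p = 0.0537). PC-3p-33614_86 had 40.7, 27.7 and 31.1 in the day 30 libraries, 14.4, 5.08 and 12.9 in the day 90 libraries and 0, 0 and 14.4 in the day 210 libraries, with a log2 fold change of -3.76 ± 1.002 against day 30 (adjusted p = 0.046). PC-3p-61157_22, with the seed of mir-4338-p3, had 0, 0 and 5.07 in the day 30 libraries, 12.5, 7.12 and 11.4 in the day 90 libraries and 0, 0 and 0 in the day 210 libraries, and was called against day 90, the age that brought it past the filter (adjusted p = 0.0457).

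**Figure D3:**
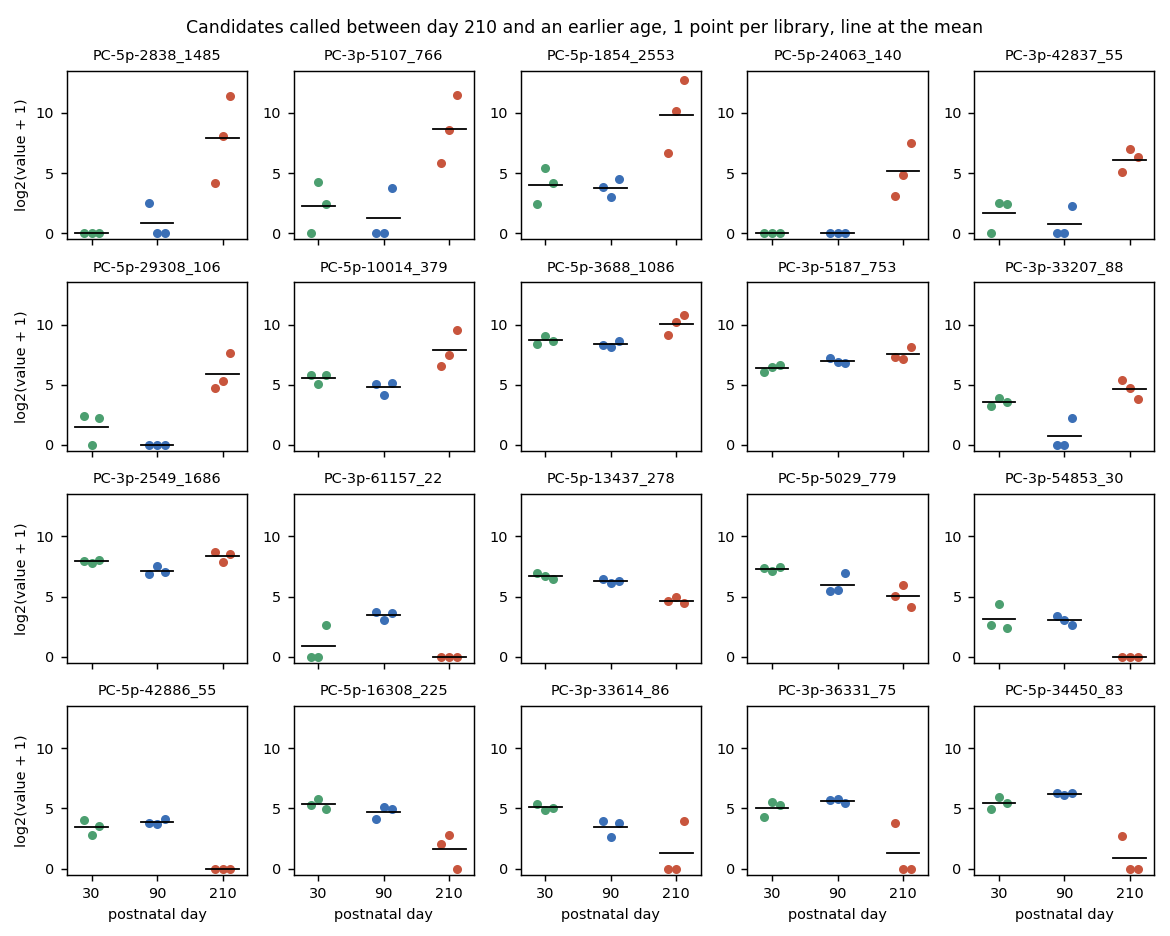
Values on a log2(value + 1) scale of the 20 candidates called between day 210 and an earlier age, 1 point per library and a line at the mean of each age, with risers first and falls after them. In most risers day 210 replicate 3, the rightmost point, is highest, and in 3 falls all day 210 points lie at 0.

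The share of a library that the candidates under 70% GC held overlapped between all ages. That of the GC-rich ones overlapped between day 90 and day 30 and stood higher in every day 210 library. In day 210 replicate 1 it was higher by little, at 0.0140% against 0.0137% in day 30 replicate 2. The GC-rich set includes PC-5p-2838_1485, PC-3p-5107_766, PC-5p-24063_140 and PC-3p-42837_55, which miss the filter without the day 210 libraries. The filter thus favoured a higher day 210 share, and nothing is read from the lack of overlap. All 224 together made up 0.538 ± 0.0167% of the values at day 30, 0.540 ± 0.0403% at day 90 and 0.610 ± 0.123% at day 210 (SD, n = 3), with 0.751% in day 210 replicate 3. Without that library day 210 differed from day 30 by 0.0010 percentage points and from day 90 by -0.00052. Candidates under 70% GC made up 0.528 ± 0.0175%, 0.531 ± 0.0405% and 0.507 ± 0.00724%. The 41 candidates of at least 70% GC made up 0.00989 ± 0.00409% at day 30, 0.00903 ± 0.00161% at day 90 and 0.103 ± 0.130% at day 210. Their summed values were 1058, 3433 and 18379 in day 210 replicates 1, 2 and 3, and at most 911 in any earlier library. The 3 day 210 libraries therefore differ among themselves by more than the earlier ages do. Depth ran in the reverse order over these libraries, at 7.08, 6.16 and 4.54 M reads, and its part in the result was not tested. The 15 named miRNAs of the same GC class held 0.123, 0.140 and 0.205% of the values in these 3 libraries, and between 0.0970 and 0.154% in the 6 earlier ones.

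**Figure D4:**
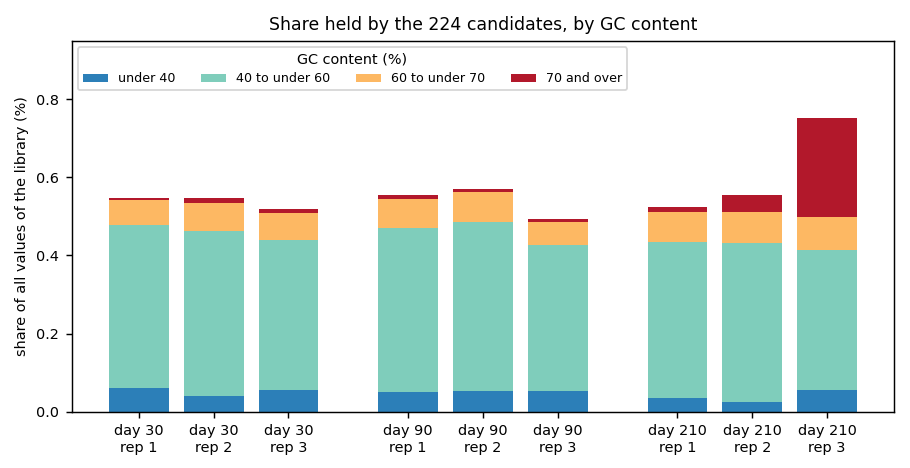
Share (%) of all values of each library that the 224 candidates held, stacked by the GC content of their sequences. The class of 70% and over takes 0.253% of day 210 replicate 3 and 0.0432% of day 210 replicate 2, and at most 0.0140% of the other libraries.

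The rise was not shared by all GC-rich candidates. Of the 41 of at least 70% GC, 5 were called higher and 2 lower in each day 210 comparison, and of the 15 named miRNAs of that class 3 were called higher and 1 lower. Among the risers, PC-5p-2838_1485, PC-3p-5107_766, PC-5p-24063_140 and PC-3p-42837_55 miss the filter without the day 210 libraries. Among the falls, PC-3p-54853_30 misses it without the day 90 libraries. Of the 41, 24 had a positive log2 fold change against day 30 and 27 against day 90. Their median log2 fold change was 0.51 against day 30 and 0.96 against day 90, where the 129 candidates of 40 to under 60% GC had -0.32 in both. Over the 224 candidates Pearson's r of GC content with the log2 fold change was 0.25 in both day 210 comparisons (Spearman's rho 0.13 against day 30 and 0.19 against day 90), and -0.02 for day 90 against day 30. Over the 406 named miRNAs r was 0.02 against day 30 and 0.14 against day 90. These are descriptions over sequences from the same 9 libraries, and the candidates include those that the filter let in through 1 age. Length went with age as well: the 58 candidates of 18 to 20 bases had a median of 0.53 against day 30, and the 156 of 21 to 23 bases had -0.36, where the named miRNAs of these lengths had 0.20 and -0.15. A run of CCCCC stood in 13 candidates (5.80%) and in 3 named miRNAs (0.739%) on the given strand, and its reverse complement in 2 and 3 of them. This motif was chosen after the risers were seen. When entries of at least 70% GC were left out before the fit, 7 candidates were called against day 30, 1 higher and 6 lower, and 9 against day 90, 5 higher and 4 lower. The 5 called higher and 2 called lower of that class were left out with it, so most of this drop was fixed in advance. All of the 7 and of the 9 were also called in the main fit.

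**Figure D5:**
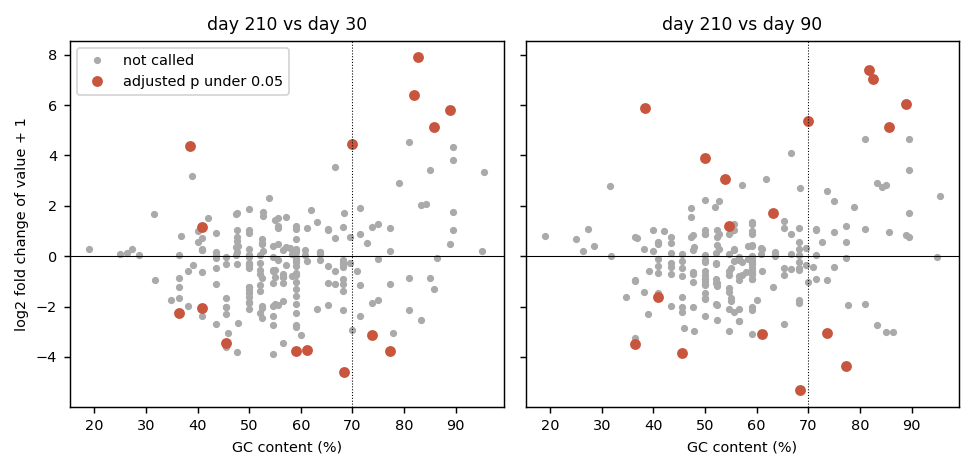
Log2 fold change of value + 1 against GC content (%) for the 224 candidates, for day 210 against day 30 (left) and against day 90 (right), with called candidates in red and a dotted line at 70% GC. The 3 largest rises of each panel lie to the right of that line, where other candidates, called or not, lie on both sides of 0. Of the called candidates there, PC-5p-2838_1485, PC-3p-5107_766, PC-5p-24063_140 and PC-3p-42837_55 miss the filter without the day 210 libraries.

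Between day 90 and day 30, no candidate was called by limma, where 1.11% of all entries were, 0.794% higher and 0.317% lower. An unadjusted p under 0.05 was found in 17 of the 224 candidates and in 96 of all 630 entries, and with limma's sample weights 12 were called, 4 higher and 8 lower. PC-3p-27242_118, chosen after its values were seen, came nearest.
PC-3p-27242_118: gAGAACATttgactgagt
This 18-base candidate was listed at 0 in all day 30 libraries and had 42.2, 59.98 and 31.9 at day 90 and 0, 31.0 and 22.4 at day 210. The day 90 libraries lay above all others, the pairwise difference from day 30 missed the threshold (adjusted p = 0.0667), and the F test over the 3 ages called it (adjusted p = 0.0359). With a pseudocount of 5, or without any 1 of the day 210 libraries, 1 candidate was called higher at day 90. The F test called 17 candidates, where 10.3% of all entries were called, and this was the only one not called in a pairwise comparison.

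The libraries of both ages did not overlap in 41 candidates between day 90 and day 30, in 59 between day 210 and day 30, and in 54 between day 210 and day 90, where 27.9, 30.2 and 29.2% of all entries did not. The spread within an age was wider in the candidates than in the named miRNAs. In the candidates the SD of the log2 value had a median of 0.61 over the day 30 libraries, 0.48 over day 90 and 1.08 over day 210, and in the named miRNAs of 0.24, 0.22 and 0.42.

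The 3 candidates nearest inside the filter, PC-3p-51541_36, PC-5p-50400_38 and PC-5p-58238_26, had a third-highest value of 5.07, and the 3 nearest outside, PC-3p-59649_24, PC-3p-61726_21 and PC-3p-59193_24, had 4.79. Only 5 candidates reached the filter value at 1 age alone, 1 at day 30 (PC-3p-51541_36) and 4 at day 210 (PC-5p-2838_1485, PC-5p-29308_106, PC-5p-24063_140 and PC-3p-42837_55). Without the day 30, day 90 or day 210 libraries, 40, 34 and 35 of the 224 would miss the filter.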

How the data were processed

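Small RNA libraries came from total RNA by a TruSeq protocol, and the program ACGT101-miR removed adapter dimers, low-complexity reads, common RNA families and repeats, per the labels' protocols. Not given in the sources used here are the aligner, the build of the genome, the miRNA database and how libraries were scaled, so no positions are printed. The deposited values are a signal, normalised read numbers per mature sequence scaled by the authors, per the file headers. The table held 980 entries, of which 5 repeats of another entry were dropped.

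Depth was read from the values. With the commonest low value of a library taken as 5 reads, 94.8% of the candidate values above 0 were whole reads (tolerance 0.01 reads), and in 272 of the 522 candidates the reads summed to the number that ends the name. Among the 224 past the filter, the summed reads equalled that number in 44, exceeded it in 170 and fell below it in 10. The median ratio of summed reads to that number was 1.35 in these 224, so the read numbers remain an inference. No counting intervals are given, since no raw counts are held.

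Because the values are not counts, limma 3.58.1 in R 4.3.3 was used on log2(value + 1) of the 630 entries past the filter (5 or more in 3 or more libraries), with all 9 libraries, age as the only term and a mean-variance trend. P-values were Benjamini-Hochberg adjusted over these entries with a threshold of 0.05. Log2 fold changes are ± SE on the value + 1 scale, which understates changes of low entries, and none is given against an age listed at 0. The fit was also tested on simulated data that had the same spread at every age, unlike these libraries, and nothing is read from that test. Shares of candidates in named entries were compared by exact permutation tests in Python 3.11.15.

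The members, lists and tests were chosen with earlier results of these data known. Named are, per comparison, up to 10 rises and 10 falls among called candidates whose libraries do not overlap between ages, the 10 of highest mean, the 5 of highest mean that share a seed with a named entry, the 5 that lie near another entry, and the 3 on each side of the filter. Near means at most 1 substitution and at most 2 bases of the candidate outside the overlap, with no limit on those of the other entry. In all, 22 planned and 2 added alternatives were run.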

Additional observations from a re-analysis of the deposited data

How the results depend on the processing

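Of the 32 calls named in the text, none changed direction under an alternative, and 2 passed the threshold under every alternative that tested them. Leaving out 1 library at a time gave 0 to 1 calls for day 90 against day 30, 2 to 24 for day 210 against day 30, 2 to 20 for day 210 against day 90 and 5 to 22 by the F test. For day 90 against day 30, where 0 were called, 1 was called with a pseudocount of 5, with the GC correction, or with only the ages compared in the fit, and 12 with sample weights. For day 210 against day 30, where 15 were called, sample weights gave 25, a fit of only the ages compared gave 1, and entries under 70% GC alone gave 7. For day 210 against day 90, where 17 were called, the common floor and the fit with no mean-variance trend each gave 9, only the ages compared 4, and GC under 70% 9. For the F test, where 17 were called, the common floor gave 10, no mean-variance trend 10, sample weights 31 and GC under 70% 10. Fits of entries under 70% GC leave out the called GC-rich candidates, so these lower counts were partly fixed in advance. The candidates' share of all values, higher by 0.0716 percentage points at day 210 than at day 30 and by 0.0701 than at day 90, became -0.0219 and -0.0242 with GC under 70% alone, and 0.0010 and -0.00052 without day 210 replicate 3. Of the alternatives chosen after seeing the data, the common floor with the GC correction gave 1 call for day 90 against day 30, and leaving out day 210 replicates 2 and 3 together gave 1, 7 and 8 calls in the 3 comparisons and 10 by the F test. That last fit leaves 1 library at day 210, which is assumed to vary like the other ages. Same-numbered libraries did not deviate together (correlations of -0.102 to 0.188), so the numbers were not taken to pair libraries. With replicate number as a block, 0, 12 and 14 candidates were called in the 3 comparisons and 15 by the F test, and the block with the GC correction gave 1 for day 90 against day 30 and 11 for day 210 against day 90. Low candidates rest on few reads, and a value under 8.001 could not stand for 5 reads in day 210 replicate 3. The cause of these shifts was not tested.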

Other observations

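The 298 candidates below the filter were richer in G and C than those above it. Their median GC content was 63.2%, against 55.6% in the 224 above the filter, and 76 of them (25.5%) had at least 70% GC, against 41 (18.3%). Most were seen once: 195 (65.4%) were above 0 in a single library. Of these 298, 81 were above 0 at day 30 alone, 87 at day 90 alone and 55 at day 210 alone. The highest mean over the 9 libraries among them was 43.5. Lengths of 18 to 20 bases were found in 121 (40.6%), against 58 (25.9%) above the filter.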
